A study of Homo sapiens with 44 samples.

Results

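The genes of cholesterol and fatty acid synthesis were followed as H1 cells, a widely used line of human embryonic stem cells, were differentiated towards heart muscle. The set holds 28 genes, taken by symbol from a written list and matched through GENCODE to 1 gene identifier each among the 60499 identifiers of the files. It comprises 8 genes of the mevalonate steps, 11 genes of the squalene and sterol ring steps, 5 genes of regulation and sterol transport and 4 genes of fatty acid synthesis. All 28 passed the filter on low counts and were tested among 22955 genes. The rule for membership is the gene's place in these routes and uses no measured value.

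Cells build cholesterol from acetyl-CoA. The mevalonate steps make isoprenoid units, these are joined to squalene, and squalene is closed into a ring and trimmed to cholesterol. The transcription factor SREBP-2, encoded by SREBF2, raises the genes of this route. Its precursor is carried by SCAP to the Golgi for cleavage, and INSIG1 holds both in the endoplasmic reticulum while sterols are plentiful. SREBP-1, encoded by SREBF1, acts mainly on the fatty acid genes, and insulin is known to raise it in liver. ACLY supplies acetyl-CoA, ACACA and FASN build saturated fatty acids, and SCD desaturates them.

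RNA was taken from 44 wells in 12 groups, 5 wells per group on days 5, 7, 9 and 11 and 3 per group elsewhere. Pluripotent H1 cells grew on laminin LN-521. The wells of all numbered days had LN-221 besides LN-521. Per the labels' protocols, day 0 cells were in Nutristem medium. Days 1 and 3 were in RPMI medium with B27 supplement lacking insulin and with CHIR99021, a GSK3 inhibitor that activates Wnt signalling. Day 5 was in the same insulin-free medium with IWP2, an inhibitor of Wnt production, and days 7 and 9 were in insulin-free medium alone. Days 11, 14, 20, 30 and 90 were in RPMI with the complete CTS B-27 supplement. The change of medium and the start of CHIR99021 both fall between day 0 and day 1, and the change of supplement falls between day 9 and day 11 with 2 more days of culture, so their parts cannot be told apart. No well was kept in 1 medium throughout, only 1 cell line was used, and the labels do not say whether wells came from separate cultures, so p values measure the spread between these wells.

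Total estimated counts ranged from 6937136 to 33498022 per library, the lowest estimated count of any of the 28 genes in a library was 16.7, and RNA integrity scores ranged from 7.4 to 10. Marker genes followed the labels. The summed level of 5 pluripotency genes fell from 4847 to 5121 CPM in pluripotent wells to 8.92 to 15.2 CPM at day 90, where NANOG and PRDM14 were under 0.5 CPM in every well. The sum of 6 cardiomyocyte genes went from 31.1 to 72.9 CPM to 14991 to 50664 CPM. Some wells stood apart. At day 11, replicates 1 and 2 differed from replicates 5, 6 and 7 in liver, cell-cycle and cardiomyocyte genes. At day 14 replicate 3 held the highest level of 26 of the 28 genes, at day 20 replicate 2, the shallowest library, held the lowest of 25, and at day 90 replicate 4 held the lowest of 18. Levels are CPM, counts per 1000000 counts after TMM scaling, a scaling that sets the typical gene equal between libraries. They compare wells for 1 gene and not 1 gene with another. In wells of mixed cells, fewer cells of a type and less RNA per cell cannot be told apart.

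On counts, the sterol enzymes as a sum were high in pluripotent and day 0 cells, dropped at day 1, were lowest at day 5 and were high again at day 90. The summed level of the 19 sterol enzymes was 2289 ± 32.9 CPM (SD, n = 3) in pluripotent cells, 1935 ± 118 CPM (SD, n = 3) at day 0 and 1024 ± 54.5 CPM (SD, n = 3) at day 1. It was lowest at day 5, at 875 ± 95.6 CPM (SD, n = 5), stood at 1184 ± 204 CPM (SD, n = 5) at day 9, and was 1987 ± 385 CPM (SD, n = 3) at day 90. Day 5 gave the lowest group mean for 14 of the 28 genes, 12 of them sterol enzymes. The highest mean fell in pluripotent cells for 10 genes, at day 0 for 6 and at day 90 for 9. By an F test over the 12 groups (edgeR quasi-likelihood, Benjamini-Hochberg adjusted p under 0.05), 27 of the 28 genes differed, beside 87.1% of all genes tested, so a difference somewhere in the course was the rule among genes. SCAP, the escort of the SREBPs, spanned the narrowest range, from 89.5 CPM at day 20 to 139.7 CPM in pluripotent cells, 1.56-fold. STARD4, a carrier of cholesterol between membranes, spanned the widest, 17.9-fold.

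**Figure D1:**
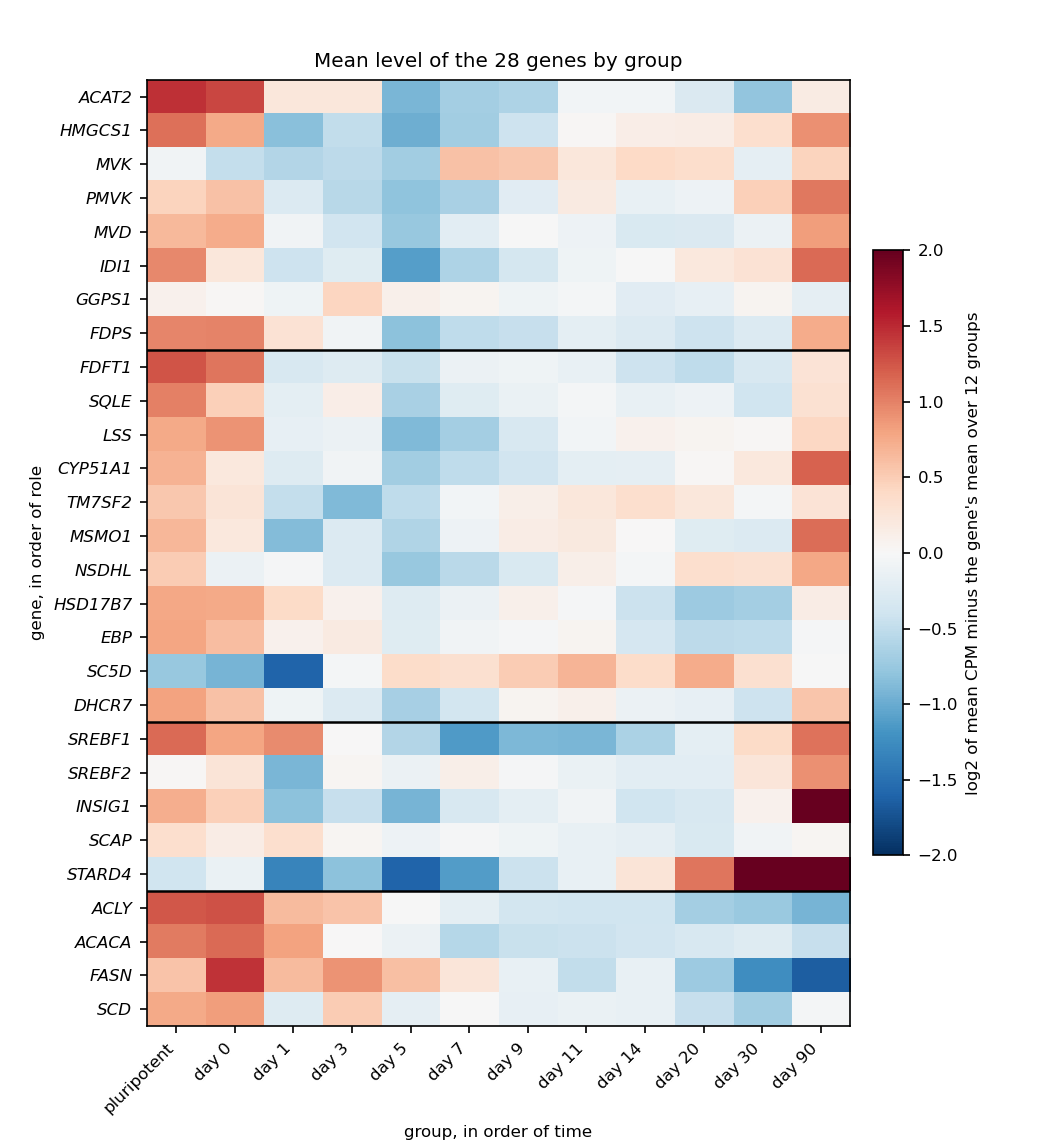
Mean level of each of the 28 genes (rows, in order of role, lines between roles) in each of the 12 groups (columns). Colour gives log2 of the mean CPM minus the gene's own mean over the groups, and values beyond 2 in either direction take the end colour. Values beyond 2 are those of STARD4 at days 30 and 90 and INSIG1 at day 90. Day 5 holds the lowest mean of 14 of the 28 genes, day 90 the highest of 9, and the 4 fatty acid genes at the bottom are below their day 0 level at day 90.

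The late part of this course depends on the scale. TPM divides counts by transcript length and sets every library to 1 sum, and in these total-RNA libraries protein-coding genes held only 15.4% to 41.9% of it. Between TPM and counts the median log2 change of 5029 genes (mean TPM 10 or more) shifted by -0.29 from day 0 to day 9, by -0.64 from day 9 to day 90 and by -0.93 from day 30 to day 90. On CPM, 21 of the 28 genes had a higher mean at day 90 than at day 9, on TPM 13 did, and on TPM rescaled to protein-coding genes 17 did. Day 90 held the highest mean of 9 genes on CPM, of 1 on TPM and of 10 on the rescaled TPM. The direction of the early fall did not depend on it, since 26 of the 28 genes were lower at day 9 than at day 0 on all 3 scales. Changes below are relative to the typical gene of the libraries compared.

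Promoters are shown for 5 members called in these comparisons, since SREBP-2 acts through short sterol elements that lie close to the start of its targets, with NF-Y at CCAAT boxes as a partner. Sequences are from RefSeq on GRCh38.p14, which gave promoters for 24 of the 28 genes, 7 of them with more than 1 start. Each line runs 5′ to 3′ on the gene's strand, begins 250 bases before the RefSeq start and stops where the GENCODE gene begins. Capitals mark the sterol element TCACNCCAC, in which N is any base, and the CCAAT box (CCAAT, or ATTGG on the other strand), both searched on both strands.
SREBF2, chr22:41832855-41833078, plus strand: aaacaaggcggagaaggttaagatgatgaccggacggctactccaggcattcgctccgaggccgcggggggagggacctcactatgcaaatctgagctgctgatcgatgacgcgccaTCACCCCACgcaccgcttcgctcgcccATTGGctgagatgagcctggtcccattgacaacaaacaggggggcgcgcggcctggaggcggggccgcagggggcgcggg
HMGCS1, chr5:43313513-43313662, minus strand: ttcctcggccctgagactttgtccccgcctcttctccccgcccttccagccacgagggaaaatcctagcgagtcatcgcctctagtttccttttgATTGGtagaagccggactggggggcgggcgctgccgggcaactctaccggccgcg
INSIG1, chr7:155297628-155297775, plus strand: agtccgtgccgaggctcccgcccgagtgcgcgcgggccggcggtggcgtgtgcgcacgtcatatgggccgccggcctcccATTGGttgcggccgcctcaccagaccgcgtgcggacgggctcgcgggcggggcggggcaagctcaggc
STARD4, chr5:111512591-111512785, minus strand: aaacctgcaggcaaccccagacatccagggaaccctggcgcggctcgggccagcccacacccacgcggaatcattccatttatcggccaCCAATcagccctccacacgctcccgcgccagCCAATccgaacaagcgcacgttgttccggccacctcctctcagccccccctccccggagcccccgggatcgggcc
MSMO1, chr4:165327419-165327622, plus strand: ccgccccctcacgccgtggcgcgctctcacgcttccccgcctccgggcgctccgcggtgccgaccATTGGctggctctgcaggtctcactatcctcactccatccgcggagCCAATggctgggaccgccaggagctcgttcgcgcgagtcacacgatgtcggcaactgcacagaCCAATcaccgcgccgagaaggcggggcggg
The sterol element occurred in 1 of 24 member promoters, that of SREBF2 at 133 to 125 bases before its start, and in 1.09% of the 27305 genes with a promoter. A CCAAT box lay within the 250 bases before the start of 20 of 24 members (83.3%), beside 37.0% of all genes and 40.1% of the genes tested. The E-box CACGTG occurred in 3 of 24 (12.5%) beside 7.73% of all genes and 10.4% of the genes tested. HMGCS1 had its printed CCAAT box at 155 to 151 bases before the start, INSIG1 at 170 to 166, STARD4 at 161 to 157 and 130 to 126, and MSMO1 at 185 to 181, 139 to 135 and 76 to 72. A match describes letters and not binding, and genes with more than 1 start could match at any of them. The sterol element was searched in 1 form and only within these 250 bases. A promoter without a match may hold another form, or the element may lie elsewhere.

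At day 0 the cells had reached confluence. The median log2 change of the 28 genes from pluripotent cells was -0.16. Only FASN, the fatty acid synthase, was called, at 438, 464 and 616 CPM in pluripotent wells and 852, 1002 and 926 CPM at day 0. The groups did not overlap, and the log2 change was 0.87 ± 0.27 (SE, adjusted p = 0.049). One call in 28 stood beside 5.88% of all genes called, 3.45% as higher. The call was lost without any 1 of the 6 wells. When only these 6 wells were fitted, 3 genes were called higher and 11 lower, beside 49.3% of genes.

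Within a day of CHIR99021 and insulin-free medium, genes of every role in the set fell. Of the 28 genes, 14 were lower at day 1 than at day 0 and 0 were higher, beside 22.1% of all genes called, 12.3% as lower. The median log2 change of the 28 was -0.69, beside -0.03 over all genes. Lower were 3 of 8 mevalonate genes, 6 of 11 squalene and ring genes, 3 of 5 regulators and carriers and 2 of 4 fatty acid genes, and the wells of the 2 days did not overlap for 25 of the 28 genes, beside 55.3% of all genes.

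HMGCS1 makes HMG-CoA, the substrate of the rate-limiting step. It lies at chr5:43289395-43313512 (GRCh38, GENCODE release 29) and its promoter is among those shown. It read 264, 259 and 302 CPM at day 0 and 96.9, 78 and 99.5 CPM at day 1. Every day 1 well was under the lowest day 0 well, with a log2 change of -1.59 ± 0.32 (adjusted p = 2.9e-04). FDFT1, which joins farnesyl units to squalene, went from 299, 322 and 326 CPM to 123, 118 and 119 CPM, again with no overlap (log2 change -1.40 ± 0.23, adjusted p = 1.9e-05). SQLE, the epoxidase that follows, went from 136, 130.1 and 146 to 91.5, 76.9 and 91.7 CPM. Its drop was smaller, with a log2 change of -0.66 ± 0.18 (adjusted p = 0.0067).

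Of the 5 regulators and carriers, SREBF2, INSIG1 and STARD4 were lower at day 1. SREBF2 went from 186, 217 and 179.5 CPM to 87.4, 88.7 and 81.2 CPM, a log2 change of -1.18 ± 0.24 (adjusted p = 2.8e-04). INSIG1, at 47.3, 49.2 and 53.9 CPM on day 0, read 21.3, 16.7 and 23.3 CPM on day 1, and no wells overlapped (log2 change -1.30 ± 0.32, adjusted p = 0.003). STARD4 changed by -1.20 ± 0.19 (adjusted p = 1.5e-05). SREBF1 and SCAP were not called, with log2 changes of 0.16 ± 0.31 and 0.18 ± 0.20. The other genes called lower were PMVK and MVD of the mevalonate steps, LSS, which closes the ring, TM7SF2, MSMO1 and DHCR7 of the ring steps, FASN and SCD, with log2 changes between -1.09 and -0.67. In the same wells 3 of 5 pluripotency markers were called lower and 4 of 5 mesoderm markers higher, and their part in the fall was not tested. Leaving out any 1 of the 6 wells left 7 or 8 of the 14 calls, and no direction turned. HMGCS1, FDFT1, LSS, SREBF2, INSIG1, STARD4 and SCD kept their call in each of these fits. Fitted on these 6 wells alone, 23 of the 28 were called lower, beside 58.9% of genes. Tested on TPM with limma, 1 gene was called lower, while the mean of 23 of the 28 was lower at day 1 on TPM and of 25 on CPM.

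**Figure D2:**
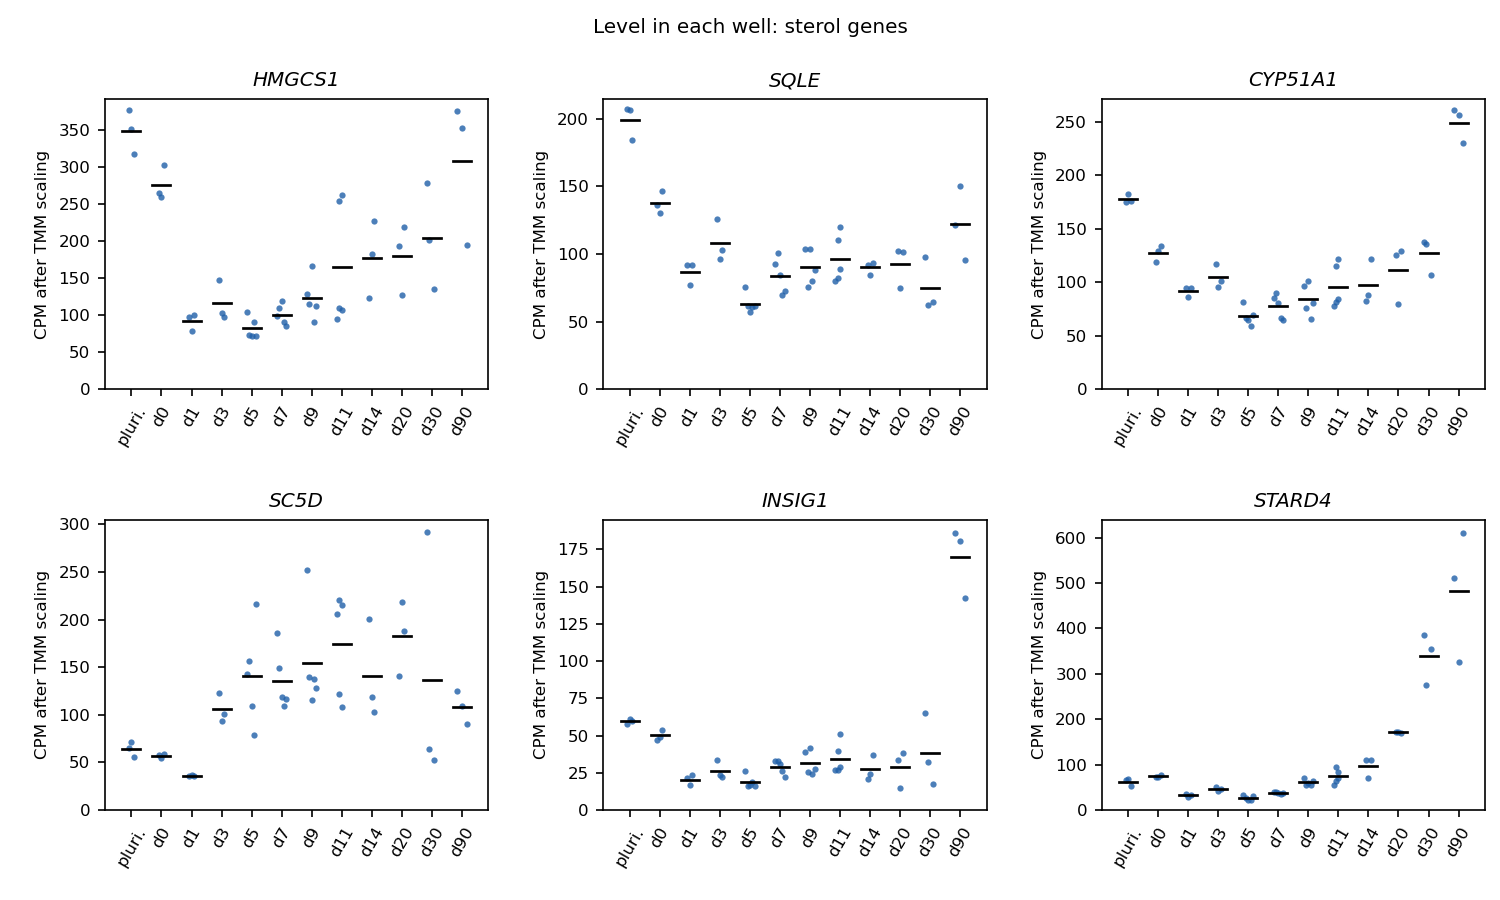
CPM after TMM scaling (vertical axis, from 0) of 6 sterol genes in each of the 44 wells (points) by group (horizontal axis), with the group mean as a bar. HMGCS1, SQLE and CYP51A1 show the fall at day 1 and the low at day 5, SC5D rises from day 3, and INSIG1 and STARD4 reach their highest level at day 90.

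From day 1 to day 3, still with CHIR99021, the share of the 28 genes called was near that of all genes. Called higher against day 1 were GGPS1, SC5D, SREBF2, STARD4 and SCD, and called lower were SREBF1 and ACACA, 7 of 28 beside 28.7% of all genes called, 15.7% as higher and 12.9% as lower. SC5D, the sterol C5-desaturase near the end of the route, read 35.5, 36.9 and 35.6 CPM at day 1 and 123, 93.9 and 101 CPM at day 3. All day 3 wells were above all day 1 wells, and the log2 change was 1.56 ± 0.40 (adjusted p = 0.0029). SREBF2 came back to 158, 191 and 153 CPM, a log2 change of 0.96 ± 0.23 (adjusted p = 0.0016), and its wells overlapped those of day 0 again. HMGCS1 was not called, at 147, 103 and 97.4 CPM (log2 change 0.34 ± 0.31, adjusted p = 0.44). SREBF1 read 53.1, 56.1 and 56.3 CPM at day 1 and 34.4, 28.5 and 22.8 CPM at day 3 (log2 change -0.95 ± 0.31, adjusted p = 0.019). Over this step 4 of 5 pluripotency markers were called lower, 3 of 9 endoderm and liver markers higher, and 2 of 5 mesoderm markers higher and 3 lower, and their part was not tested. Replicate 1 held the highest day 3 value of 23 of the 28 genes. The STARD4 call was lost without any 1 of the 6 wells. Leaving out 1 well left 3 to 5 of the 7 calls, 3 without day 3 replicate 3 and 4 without day 1 replicate 3 or day 3 replicate 2.

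From day 3 to day 5, as IWP2 replaced CHIR99021, fewer of the 28 genes were called lower than from day 0 to day 1. IDI1, SQLE, LSS, CYP51A1, STARD4 and SCD were called lower and 0 genes higher, 6 of 28 beside 17.5% of all genes called, 9.35% as lower, and the mean of 26 of the 28 was lower at day 5. IDI1, which isomerises the isoprenoid unit, went from 60.9, 38.8 and 37.9 CPM to 22.4, 22, 27.6, 24.7 and 30.4 CPM over the 5 wells of day 5. The day 5 wells all lay under the day 3 wells, with a log2 change of -0.85 ± 0.26 (adjusted p = 0.016). STARD4 went from 51.6, 42 and 45.5 CPM to 25.7, 22.4, 22.6, 31.9 and 32.3 CPM (log2 change -0.78 ± 0.17, adjusted p = 8.5e-04). SQLE read 61.6, 56.8, 60.7, 61.8 and 75.8 CPM at day 5, and 4 of the 5 wells lay between 56.8 and 61.8 CPM. Its log2 change was -0.77 ± 0.16 (adjusted p = 5.0e-04). INSIG1 was at 16.4, 17.1, 18.7, 16.2 and 26 CPM, its lowest group mean, and was not called (log2 change -0.47 ± 0.28, adjusted p = 0.28). Markers moved over the same step. Of 6 cardiomyocyte markers 5 were higher, of 7 fibroblast, smooth muscle and epicardium markers 4 were higher, and of 9 endoderm and liver markers 4 were higher and 1 lower. Lower were 4 of 5 pluripotency and 4 of 5 mesoderm markers, and the part of these changes was not tested. Without day 3 replicate 1 only SQLE and STARD4 were called, and without day 3 replicate 2 there were 4 calls.

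Days 7 and 9, in insulin-free medium with no inhibitor, brought few called changes. Against day 5, MVK and STARD4 were called higher at day 7, 2 of 28 beside 5.89% of all genes called, 4.16% as higher. MVK, the mevalonate kinase, read 10.2, 11, 14, 10.4 and 15 CPM at day 5 and 25, 25.3, 30.3, 29.5 and 38.1 CPM at day 7, its highest group. The groups did not overlap (log2 change 1.29 ± 0.23, adjusted p = 1.9e-04). STARD4 was at 39.9, 37.3, 35.7, 36.5 and 39.7 CPM at day 7 (log2 change 0.49 ± 0.15, adjusted p = 0.043), and 8 of the 10 fits without 1 well lost that call. From day 5 to day 7, 5 of 6 cardiomyocyte markers were higher, and from day 7 to day 9, 1 of 6, and their part was not tested. At day 9 STARD4 rose again, to 54.7, 58.6, 55, 64.9 and 71.1 CPM, each well above every day 7 well (log2 change 0.69 ± 0.15, adjusted p = 0.0064). It was the 1 gene of 28 called, beside 1.97% of all genes called, 1.42% as higher. Wells with the same replicate number deviated together between days 7 and 9, and in a blocked fit by replicate number, on these 10 wells alone, HMGCS1, LSS, PMVK, STARD4 and DHCR7 were called higher and FASN lower, beside 16.1% of genes. HMGCS1 read 109.8, 119, 90.9, 84.7 and 98.7 CPM at day 7 and 114, 166, 91.2, 112 and 129 CPM at day 9, with a log2 change of 0.31 in the blocked fit.

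At day 9, the last insulin-free day, most of the set stood below day 0, which came before the insulin-free medium. At days 1, 5 and 9 the mean sum of the 19 sterol enzymes was 1024, 875 and 1184 CPM. SC5D, which is in this sum, read 35.5 to 36.9 CPM at day 1 and 115 to 252 CPM at day 9. The mean sum of the 4 fatty acid genes was 1612, 1377 and 1086 CPM on the same 3 days. Against day 0, 17 of the 28 genes were lower at day 9 and MVK and SC5D were higher, beside 47.6% of all genes called, 23.5% as lower. The median log2 change was -0.64 over the 28 genes. ACAT2, which condenses acetyl-CoA at the entry of the route, was lowest relative to day 0. It went from 138, 142 and 172 CPM to 32.9, 50.9, 27.9, 35.8 and 48.6 CPM. The day 9 wells all lay far under the day 0 wells (log2 change -1.94 ± 0.41, adjusted p = 1.5e-04). SREBF1 went from 45.7, 52.8 and 49.6 CPM to 14.7, 16.8, 11, 21.7 and 12.6 CPM (log2 change -1.68 ± 0.27, adjusted p = 2.9e-06). HMGCS1 stood at 123 ± 28 CPM (SD, n = 5) against 275 ± 23.3 CPM (SD, n = 3). Its log2 change was -1.17 ± 0.27 (adjusted p = 5.1e-04). SREBF2 was not called over this span (log2 change -0.28 ± 0.21, interval of 2 SE on each side -0.69 to 0.13) although its day 9 wells all lay under its day 0 wells. Lower too were PMVK, MVD and FDPS, all of the mevalonate steps, FDFT1, SQLE, LSS, CYP51A1, EBP and DHCR7 of the squalene and ring steps, INSIG1, and all 4 fatty acid genes. Of these, EBP, DHCR7 and INSIG1 each lost the call in 6 of the 8 fits without 1 well and MVD in 3 of 8. All 6 cardiomyocyte markers and all 9 endoderm and liver markers were called higher over the same span and 6 of 6 cell-cycle genes lower. Fibroblast, smooth muscle and epicardium markers were higher in 7 of 7 and endothelial markers in 3 of 4. Their part was not tested.

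The change from insulin-free to complete supplement, between days 9 and 11, was followed by 0 called changes among the 28 genes (edgeR), beside 3.39% of all genes. At an unadjusted p under 0.05 there was 1 gene, and DESeq2 called 0. The median log2 change of the 28 was 0.06. The interval of 2 SE on each side was -0.05 to 0.91 for HMGCS1, -0.19 to 0.37 for SQLE and -0.51 to 0.46 for SREBF1. For SCD it was -0.34 to 0.42 and for FASN -0.76 to 0.08. The SE rests on a spread estimated over all 12 groups and not on the day 11 wells alone, which fell into 2 kinds. These intervals therefore do not exclude a log2 change of 1, although it lay outside each of them. The interval of ACAT2, -0.17 to 1.28, included it. A fit of these 2 days blocked by replicate number called 15 of the 28 genes higher and 1 lower, beside 47.5% of all genes. In that fit the log2 change of HMGCS1 was 0.95. Only replicates 1 and 2 shared a number between the 2 days.

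Behind these values the 5 wells of day 11 fell into 2 kinds. HMGCS1 read 253 and 261 CPM in replicates 1 and 2 and 94.4, 110.1 and 107 CPM in replicates 5, 6 and 7. The day 9 wells, from 91.2 to 166 CPM, overlapped the latter 3 only. ACAT2 read 103 and 100.3 CPM in the first pair and 27.2, 29.6 and 28.5 CPM in the other 3. SCD, with 681 and 723 CPM against 356, 356 and 381 CPM, showed the same division. SC5D was the other way round, at 121 and 108 CPM against 205, 221 and 216 CPM, and so was SREBF2, at 113 and 90.8 CPM against 165, 179 and 193 CPM. Replicates 1 and 2 were both above the other 3 wells in 23 of the 28 genes, beside 34.3% of all genes, and both below in PMVK, SC5D and SREBF2, beside 31.4%. In 13 genes they were above every day 9 well, beside 21.6% of all genes. Replicates 5, 6 and 7 were all above every day 9 well in 2 of the 28 genes, PMVK and NSDHL, beside 11.0%.

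**Figure D3:**
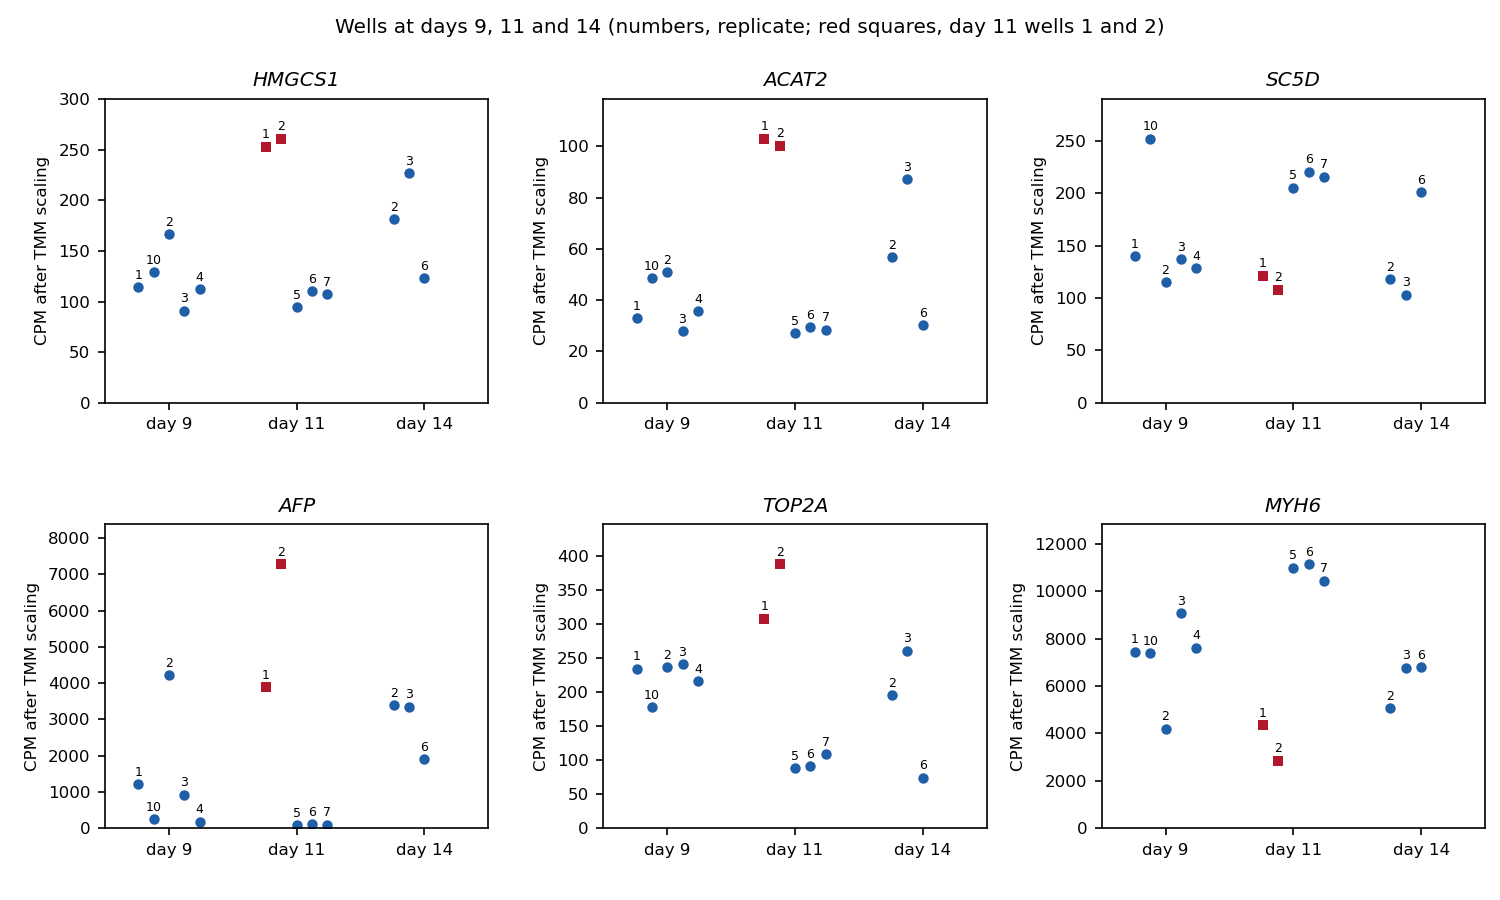
CPM after TMM scaling (vertical axes, from 0) in the wells of days 9, 11 and 14, each point marked with its replicate number, for HMGCS1, ACAT2 and SC5D and for AFP (liver), TOP2A (dividing cells) and MYH6 (cardiomyocytes). At day 11 the red squares, replicates 1 and 2, lie above the other 3 wells for HMGCS1, ACAT2, AFP and TOP2A and below them for SC5D and MYH6.

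The same 2 wells differed in their markers. The summed level of 9 endoderm and liver genes was 5621 and 10304 CPM in replicates 1 and 2 and 303 to 379 CPM in the other 3, with 7 of the 9 genes above and none of the 9 under 0.5 CPM throughout day 11. AFP alone read 3889.9 and 7287 CPM against 80.3, 97 and 92.9 CPM. All 6 cell-cycle genes were higher, with sums of 726 and 841 CPM against 234 to 279.6 CPM, and all 6 cardiomyocyte genes lower, with sums of 4710.0 and 7259.9 CPM against 17695 to 19152 CPM. Their RNA integrity scores were 8.6 and 8.0 against 9.2 to 9.5. The part of these differences in the sterol values was not tested. Without these 2 wells day 11 against day 9 still gave 0 calls.

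Of 8 genes known to be lowered by insulin through FOXO factors, only TXNIP was called at day 11 against day 9, as lower. Of all genes 3.39% were called in this step, 2.19% as lower, and the part of insulin was not tested. TXNIP read 325, 433, 360.4, 300.1 and 325 CPM at day 9. At day 11 replicates 1 and 2 read 218 and 250.2 CPM, and replicates 5, 6 and 7 read 59.3, 64.6 and 44 CPM. All day 11 wells were under all day 9 wells, and the log2 change was -1.46 ± 0.42 (adjusted p = 0.045). The other 7 were not called, IRS2 at a log2 change of -0.25 ± 0.46 and PDK4 at 0.38 ± 0.44 among them. IGFBP1, also among them, was under 0.5 CPM in every well of both days, too low to show a fall.

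From day 11 to day 30 few of the 28 genes were called. Day 14 against day 11 and day 20 against day 14 gave 0 called genes (edgeR), beside 1.04% and 0.0523% of all genes. At an unadjusted p under 0.05 there were 1 and 2 genes, and DESeq2 called 0 and 1, the latter STARD4. Without day 11 replicates 1 and 2, HMGCS1 and STARD4 were called higher at day 14, with log2 changes of 0.80 and 0.64. Wells varied widely in these groups. HMGCS1 read 182, 227 and 123 CPM at day 14, 193, 127 and 218 CPM at day 20 and 201, 135 and 277 CPM at day 30, each range overlapping the next. SQLE stayed between 62.6 and 101.9 CPM in all 9 wells. INSIG1 read 24.4, 37 and 21 CPM, 33.5, 14.8 and 38.2 CPM and 32.2, 17.2 and 65.4 CPM in the same order. Day 20 replicate 3, highest of its group in 21 of the 28 genes, had a summed level of cell-cycle genes of 1020.1 CPM, against 256 and 203 CPM in replicates 1 and 2. Its endoderm and liver sum was 5322 CPM against 2185 and 1194 CPM, and its cardiomyocyte sum 14668 CPM against 10399 and 10533 CPM. Its endothelial sum was lower, 69.2 CPM against 132 and 122 CPM. So was its fibroblast, smooth muscle and epicardium sum, 2082 CPM against 8933 and 2932 CPM. The part of these differences was not tested.

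STARD4 was the exception. It read 71.4, 109.9 and 111 CPM at day 14, 172, 171 and 169.9 CPM at day 20 and 276, 354 and 385 CPM at day 30. Every well of day 20 was above every well of day 14, and every well of day 30 above every well of day 20. The step from day 20 to day 30 was called, with a log2 change of 0.98 ± 0.19 (adjusted p = 0.0021), the 1 gene of 28 beside 2.82% of all genes called, 1.27% as higher. Over the same step 5 of 9 endoderm and liver markers were called lower, with sums of 1194 to 5322 CPM at day 20 and 26.6 to 379.7 CPM at day 30, and their part was not tested. Fitted on these 6 wells alone STARD4 was not called, and neither was any gene of the whole table (0%).

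Between day 30 and day 90 INSIG1 and 5 sterol enzymes rose in the fit of all wells. MVD, SQLE, CYP51A1, MSMO1, DHCR7 and INSIG1 were called higher and 0 genes lower, 6 of 28 beside 8.52% of all genes called, 4.03% as higher, and the median log2 change of the 28 was 0.61 on counts. On TPM this median direction turned, since 7 of the 28 genes had a higher TPM mean at day 90 than at day 30, against 23 on CPM and 21 on TPM rescaled to protein-coding genes. INSIG1, the sterol-held anchor of the SREBPs, lies at chr7:155297776-155310235. It read 32.2, 17.2 and 65.4 CPM at day 30 and 180.4, 142 and 186 CPM at day 90. The groups were far apart, with a log2 change of 2.16 ± 0.33 (adjusted p = 4.5e-05). Tested on log2(TPM + 1) with limma, INSIG1 was the 1 gene called higher, and GGPS1, FASN and ACACA were called lower, with log2 changes of -1.03, -1.09 and -0.91. MSMO1, a methyl sterol oxidase, read 76.9, 40.9 and 119.7 CPM and 229, 183 and 206 CPM (log2 change 1.38 ± 0.34, adjusted p = 0.0084). CYP51A1, the lanosterol demethylase, went from 136, 107 and 138 CPM to 257, 230.2 and 261 CPM with no overlap (log2 change 0.97 ± 0.19, adjusted p = 7.3e-04). SQLE overlapped by 1 day 30 well, at 62.6, 64.8 and 97.8 CPM and 151, 95.6 and 121 CPM, and on TPM its direction turned. The calls of SQLE and MVD were each lost in 4 of the 6 fits without 1 well. Without day 30 replicate 3, CYP51A1, INSIG1 and SREBF1 were the genes called. Over this step 2 of 4 endothelial and 1 of 9 endoderm and liver markers were lower, and their part was not tested. Fitted on the 6 wells alone, 0 were called, beside 0.0117% of genes.

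Against day 9, the last insulin-free day, day 90 held 14 of the 28 genes higher and FASN lower, beside 38.4% of all genes called, 18.7% as higher. The day 9 wells also served in the comparison with day 0. Higher were 5 of 8 mevalonate genes (HMGCS1, PMVK, MVD, IDI1 and FDPS), 5 of 11 squalene and ring genes (SQLE, LSS, CYP51A1, MSMO1 and NSDHL) and 4 of 5 regulators and carriers (SREBF1, SREBF2, INSIG1 and STARD4). SQLE lost its call in 4 of the 8 fits without 1 well and MVD in 2 of 8, and on TPM the direction of SQLE turned, at -0.118 with limma on log2(TPM + 1). On TPM the calls were 5 higher and 4 lower, with CYP51A1, SREBF1, PMVK, STARD4 and INSIG1 higher and SC5D, ACLY, GGPS1 and FASN lower. With the protein-coding rescaling they were 11 higher and 3 lower.

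STARD4 rose most, from 54.7, 58.6, 55, 64.9 and 71.1 CPM at day 9 to 325, 609.7 and 512 CPM at day 90. The lowest day 90 well was far above the highest day 9 well, and the log2 change was 2.99 ± 0.17 (adjusted p = 2.1e-16). The gene lies at chr5:111496033-111512590, overlaps an antisense gene, and its promoter is among those shown. INSIG1 read 25.8, 41.7, 24.5, 27.3 and 38.9 CPM at day 9 (log2 change to day 90 2.42 ± 0.28, adjusted p = 7.1e-09). HMGCS1 read 352, 194 and 376 CPM at day 90, above every day 9 well, with a log2 change of 1.33 ± 0.27 (adjusted p = 1.4e-04). Its day 90 mean, 307 ± 98.6 CPM (SD, n = 3), stood beside 348 ± 29.6 CPM (SD, n = 3) in pluripotent cells, whose range the day 90 wells overlapped. On TPM the means were 33.3 and 71.4 TPM. The day 90 mean of HMGCS1 was 2.51 times that of day 9 on CPM, 1.46 times on TPM and 1.97 times on the rescaled TPM. Against day 0 the ratios were 1.12, 0.604 and 1.06, so on TPM its level came back part of the way.

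The 2 SREBP genes were both higher at day 90. SREBF1 went from 14.7, 16.8, 11, 21.7 and 12.6 CPM to 48.9, 90.0 and 41.9 CPM (log2 change 1.97 ± 0.27, adjusted p = 2.9e-07). SREBF2 read 155, 147, 151, 168 and 179 CPM and 194, 500.3 and 226 CPM, and its call rested partly on 1 well (log2 change 0.94 ± 0.20, adjusted p = 3.0e-04). Without that well, day 90 replicate 4, it was not called. That well was also lowest in 18 of the 28 genes, at 194 CPM of HMGCS1 and 23.9 CPM of ACAT2, and had the highest summed level of cardiomyocyte genes, 50664 CPM. Over the same span 9 of 9 endoderm and liver markers were called lower, with sums of 799 to 7484 CPM at day 9 and 11.1 to 214 CPM at day 90, where AHSG was under 0.5 CPM in every well. Of 4 endothelial markers 4 were lower, of 7 fibroblast, smooth muscle and epicardium markers 3 were higher, and of 6 cardiomyocyte markers 4 were higher and 1 lower. The part of the mix of cells was not tested.

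**Figure D4:**
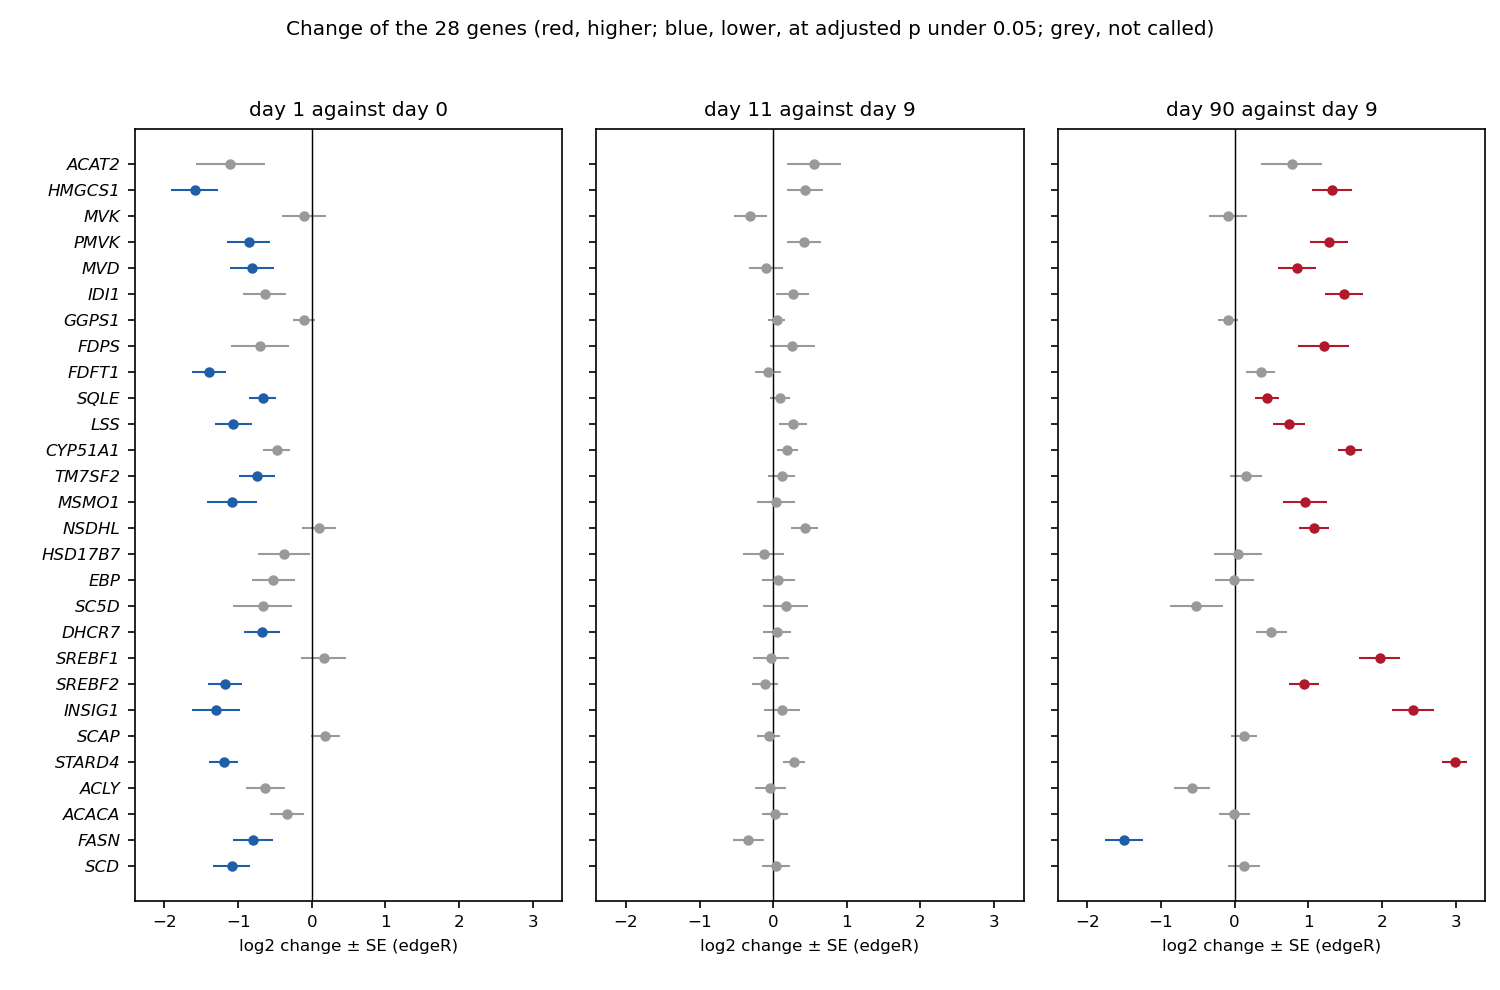
Log2 change with its SE (horizontal axis) of the 28 genes (vertical axis, in order of role) in 3 comparisons, from edgeR. Red and blue mark genes called higher and lower at an adjusted p under 0.05, and grey marks genes not called. At day 1, 14 genes are blue. None is coloured across the supplement change from day 9 to day 11. At day 90 against day 9, 14 are red and FASN is blue.

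None of the 4 fatty acid genes was called higher at day 90 than at day 9. ACLY went from 628 ± 38.2 CPM (SD, n = 3) at day 0 to 203 ± 25.3 CPM (SD, n = 5) at day 9 and 136 ± 37.8 CPM (SD, n = 3) at day 90, its lowest group. FASN fell from 926 ± 74.9 CPM (SD, n = 3) at day 0 through 307 ± 49.1 CPM (SD, n = 5) to 108 ± 13.9 CPM (SD, n = 3). FASN read 109, 122 and 94.1 CPM in the day 90 wells, all under every day 9 well (log2 change -1.50 ± 0.26, adjusted p = 1.1e-05). ACACA, the carboxylase that commits acetyl-CoA to fatty acids, was at 274 ± 11.3 CPM (SD, n = 3) at day 0 and 91.2 ± 9.94 CPM (SD, n = 5) at day 9 (log2 change -1.59 ± 0.20, adjusted p = 2.9e-08). From day 9 to day 90 it was not called, with an interval of -0.41 to 0.41. SCD fell at day 1 from 889, 1030.4 and 999 CPM to 449, 478 and 448 CPM (log2 change -1.09 ± 0.25, adjusted p = 0.0013). At day 3 it read 804, 784 and 730.4 CPM and at day 5 down again at 457, 443, 433, 532 and 558 CPM, both steps called (adjusted p = 0.019 and 0.026). Most fits without 1 well lost these later calls, 5 of 6 for day 3 and 6 of 8 for day 5. At day 90 it read 497, 553 and 545 CPM, beside 486 ± 72.8 CPM (SD, n = 5) at day 9. From day 9 to day 90 SREBF1 rose, FASN fell and the other 3 were not called, and the difference between these genes was not tested.

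**Figure D5:**
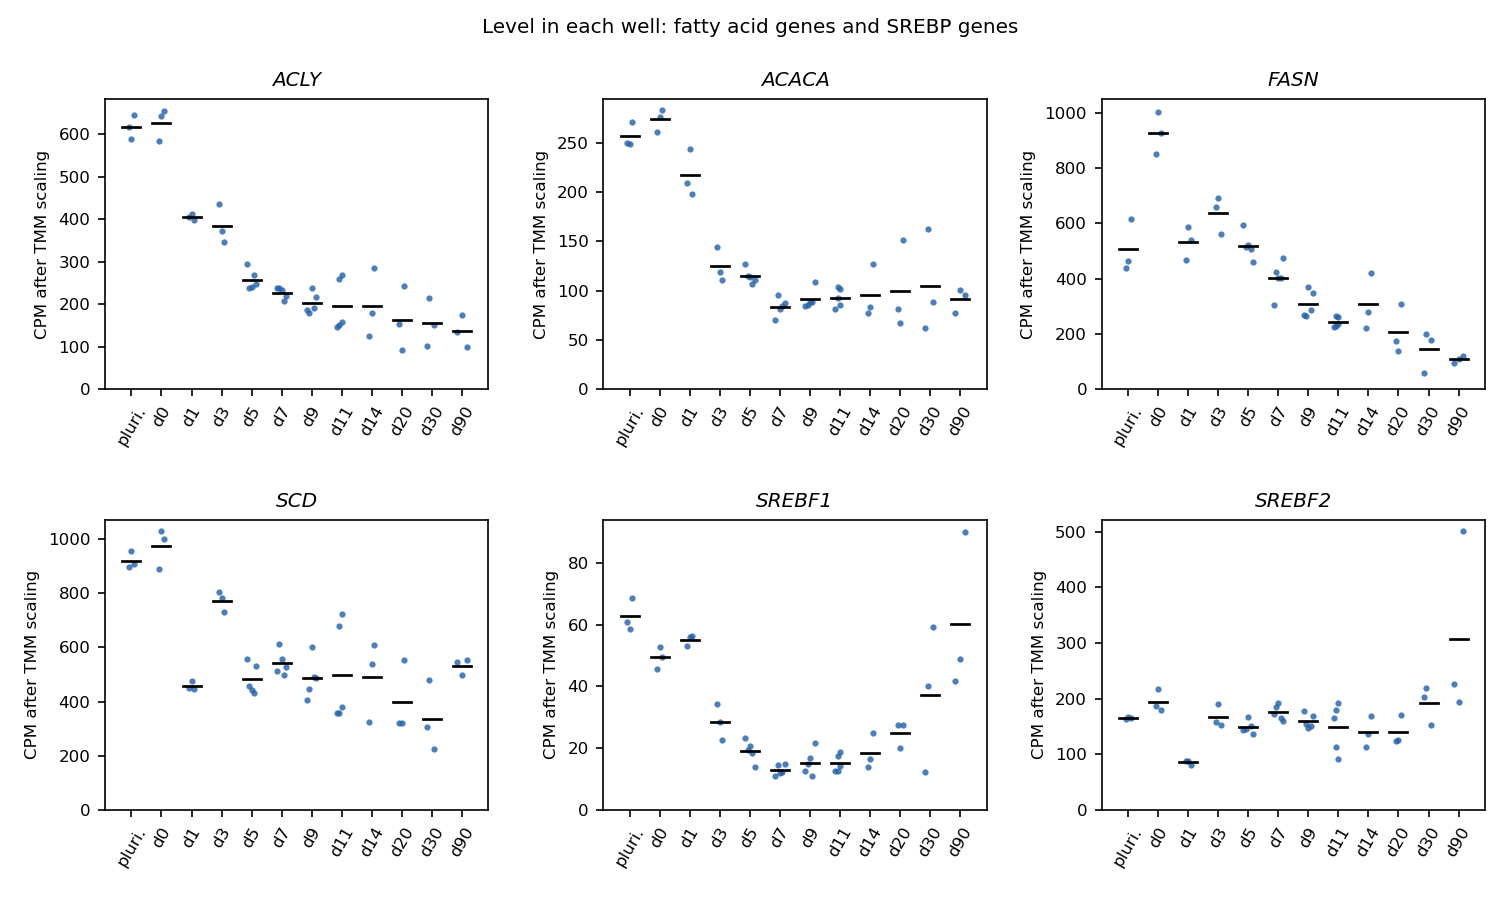
CPM after TMM scaling (vertical axes, from 0) of the 4 fatty acid genes and of SREBF1 and SREBF2 in each of the 44 wells (points) by group (horizontal axis), with group means as bars. ACLY and FASN are lowest at day 90 and ACACA stays low from day 7, while SREBF1 is low from day 7 to day 14 and high at day 90. In SREBF2 at day 90 the well at 500.3 CPM is replicate 4.

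Some sterol enzymes left the common course. SC5D was lowest at day 1, at 36 ± 0.784 CPM (SD, n = 3), rose at day 3 and was highest at day 20, at 182 ± 38.8 CPM (SD, n = 3). At day 30 replicate 10 read 292 CPM while replicates 1 and 3 read 63.8 and 53 CPM. Replicate 10 of day 30 also had more MYH6, 4021 CPM against 1931 and 1997 CPM, and an RNA integrity score of 7.4. Its sum of 6 cardiomyocyte genes, 14523 CPM, lay between the 21623 and 13879 CPM of replicates 1 and 3. Its total count was 11715812, against 27411186 and 23661479 in replicates 1 and 3. The part of these differences was not tested. MVK peaked at day 7, at 29.6 ± 5.30 CPM (SD, n = 5), beside 14.1 ± 1.22 CPM (SD, n = 3) at day 0. GGPS1, which makes the geranylgeranyl chain used on proteins rather than in sterols, spanned 1.57-fold and was highest at day 3. HSD17B7 and EBP were highest in pluripotent cells and lowest at day 20, at 7.71 ± 6.61 CPM (SD, n = 3) and 24 ± 12.3 CPM (SD, n = 3). TM7SF2, a sterol reductase, and NSDHL, a sterol dehydrogenase, were closer to the common course. TM7SF2 was highest in pluripotent cells and lowest at day 3. NSDHL was lowest at day 5, at 12.4 ± 1.24 CPM (SD, n = 5), and highest at day 90. There it read 43.3, 20.5 and 44.2 CPM against 17.1 ± 2.60 CPM (SD, n = 5) at day 9 (log2 change 1.08 ± 0.20, adjusted p = 4.3e-05).

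Over the 12 group means of log2 CPM, the 10 of 10325 protein-coding genes most like HMGCS1 by Pearson's r included IDI1 (0.943) and LSS (0.903). PDK3 (0.930), JAZF1 (0.924), AIG1 (0.921), FNDC10 (0.914), NDUFB10 (0.914), PRKAR2B (0.909), NAP1L3 (0.907) and FEZ1 (0.905) made up the rest. Among the other members, PMVK was at 0.878, CYP51A1 at 0.874, DHCR7 at 0.807, INSIG1 at 0.794 and SQLE at 0.771. FASN (-0.259), GGPS1 (-0.247) and SC5D (-0.178) were negative. The groups share the libraries and scaling, so these values describe the course only.

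Genes next to the route were read in lists of their own, beside 22.1% of all genes called at day 1 against day 0, 47.6% at day 9 against day 0 and 38.4% at day 90 against day 9. Of 9 genes of SREBP processing and sterol sensing, day 1 against day 0 gave ERLIN1 higher (log2 change 0.54 ± 0.18) and INSIG2, the second INSIG, lower, from 24.6, 19.7 and 21.5 CPM to 5.32, 6.52 and 3.52 CPM (-2.10 ± 0.33, adjusted p = 7.7e-06). Of 12 genes of cholesterol movement and storage 1 was higher and 3 lower at day 1. ABCG1 and ABCA1, the pumps that export cholesterol, were among the lower, ABCA1 from 72.5, 71.1 and 61.5 CPM to 13.7, 12.1 and 14.4 CPM (-2.35 ± 0.48, adjusted p = 4.0e-04). ABCA1 stood at 181 CPM at day 9 and 11.1 CPM at day 90 (-4.01 ± 0.50, adjusted p = 3.7e-08). Of 11 genes that desaturate, elongate or activate fatty acids, 1 was higher and 3 lower at day 1, and 7 were higher and 1 lower at day 90 against day 9. ACSS2, which makes acetyl-CoA from acetate, fell most at day 1, from 30.2, 29.3 and 37.2 CPM to 6.20, 4.43 and 4.86 CPM (-2.64 ± 0.20, adjusted p = 4.3e-12), and SCD5, a second desaturase, rose most by day 90 (2.82 ± 0.40, adjusted p = 3.9e-07). Wnt proteins carry an acyl chain made from the product of SCD, and 3 genes linked to such proteins were read. WLS and NOTUM, which do not add the chain, rose at day 1. WLS went from 8.59, 7.42 and 7.77 CPM to 125, 107 and 128 CPM (3.92 ± 0.25, adjusted p = 4.3e-14). PORCN, which adds the chain, was not called (-0.44 ± 0.23). Of 8 genes of glycerolipid synthesis and droplets, 5 were higher and 1 lower at day 9 against day 0.

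Several members overlap other genes or have copies. ACAT2 overlaps TCP1 and SOD2, MVK overlaps MMAB, GGPS1 overlaps ARID4B and TBCE, TM7SF2 overlaps VPS51, SREBF1 overlaps RAI1 and CYP51A1 overlaps unnamed coding genes. HMGCS1, IDI1, FDPS, FDFT1, LSS, CYP51A1, SREBF2, STARD4 and ACLY overlap antisense or other non-coding genes. FDPS has 8 annotated pseudogenes, CYP51A1 3, HSD17B7 2 and SCD 1. The library kit marks strand, but the use of strand in counting is not given in the sources used here, so the values of these genes are uncertain to that extent.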

How the data were processed

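RNA of 44 wells was measured by total-RNA sequencing. The authors deposited, for each gene, unscaled estimated counts and TPM. A deposited table gives RNA integrity score and sequencing lane, 1 of 5, for each library, with scores used as deposited. The submitters' processing notes name cutadapt, STAR 2.5.2b, RSEM 1.2.31 and hg38, without roles. The annotation and the use of strand in counting are not given in the sources used here.

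Estimated counts were rounded, filtered by group with filterByExpr, scaled by TMM and tested with edgeR 4.0.16 (R 4.3.3, quasi-likelihood, 12 group means, all 44 libraries, 13 comparisons). Calls are at a Benjamini-Hochberg adjusted p under 0.05 over 22955 genes. Intervals are the log2 change and 2 SE on each side. Alternatives used limma 3.58.1 on log2(TPM + 1) and log2(TPM + 0.1), DESeq2 1.42.0, RLE scaling, other filters, a lane term, RNA integrity, the compared groups alone, a replicate block and each library left out. Rescaling TPM to protein-coding genes and leaving out day 11 replicates 1 and 2 together were added after seeing the data. The edgeR fit was also run on simulated counts with known changes in a small part of the genes and 1 spread per gene. That simulation did not cover spread that differs between groups or changes in many genes.

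The members and lists were chosen with earlier results of these data known. Wells are given for HMGCS1, SQLE, SCD, INSIG1 and the 2 called members with the largest change in each comparison, and at most 2 called genes of other lists. Other genes with values were chosen after their values were seen. Same-numbered wells of days 7 and 9 deviated together, with correlations of 0.140 to 0.761 over 5 pairs, which comes from the data and not from a stated pairing.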

Additional observations from a re-analysis of the deposited data

Results flagged for a closer look

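In groups of 5 wells, a well was singled out where its gap to the nearest other well, divided by the range of the group, exceeded Dixon's critical value of 0.71. Of 112 gene and group pairs 7 were singled out, and chance gives about 1 in 20. Day 5 replicate 5 was far above the other wells in 3 genes, at 75.8 CPM of SQLE (others 56.8 to 61.8), 48.2 CPM of DHCR7 (others 29.1 to 34.5) and 26.0 CPM of INSIG1 (others 16.2 to 18.7). That well was also the highest of its group in 22 of the 28 genes. LSS was low in day 7 replicate 1, at 49.5 CPM beside 54.9 to 56.2 CPM. At day 9, SC5D was high in replicate 10, at 252 CPM beside 115 to 140.1 CPM, SCAP in replicate 2, at 123 CPM beside 95.3 to 103 CPM, and ACACA in replicate 4, at 109 CPM beside 84.7 to 88.6 CPM.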

How the results depend on the processing

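Of 72 called pairs of gene and comparison, 41 kept the call without each single library, 31 lost it without at least 1, and 0 turned. Direction turned on TPM only, for SQLE from day 30 to day 90 (-0.163 and -0.166 with pseudocounts of 1 and 0.1) and from day 9 to day 90 (-0.118 and -0.119). Each day below stands for its step from the sampled day before, and day 0 for its step from pluripotent cells. Without single libraries the called members ranged from 0 to 0 (day 0), 7 to 8 (day 1), 3 to 5 (day 3), 2 to 6 (day 5), 1 to 2 (day 7), 1 to 1 (day 9), 0 to 0 (day 11), 0 to 2 (day 14), 0 to 0 (day 20), 1 to 3 (day 30) and 3 to 8 (day 90). They ranged from 15 to 20 between days 0 and 9, from 12 to 16 between days 9 and 90 and from 26 to 28 for the F test. The 2 at day 14 came without day 14 replicate 3, the 3 at day 30 without its replicate 10, and the 8 at day 90 without its replicate 4.

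Counts of calls that moved by over 1.5 times follow, in the order of days. With limma on log2(TPM + 1) they were 0 (day 0), 1 (day 1), 1 (day 3), 3 (day 5), 0 (days 7, 9 and 30) and 9 between days 9 and 90. With log2(TPM + 0.1) they were 0, 1, 1, 0, 0, 0 and 0 for the same steps, 2 (day 90) and 7 between days 9 and 90. On TPM rescaled to protein-coding genes they were 4 (day 3), 3 (day 5), 1 (day 7), 2 (day 9) and 1 (day 14). With the compared groups alone they were 14 (day 0), 23 (day 1), 13 (day 3), 14 (day 5), 10 (day 7) and 0 (days 30 and 90). Of all genes these fits called 49.3%, 58.9%, 60.1%, 39.8%, 17.8%, 0% and 0.0117% in the same order. A change of at least 2-fold left 0, 8, 1, 0, 1 and 0 in the steps to days 0, 1, 3, 5, 7 and 9. It left 0 (day 30), 2 (day 90) and 12 between days 0 and 9. The shares of all genes were 2.91%, 13.5%, 17.8%, 10.1%, 3.65%, 1.28%, 2.02%, 5.09% and 31.7% in the same order. DESeq2 gave 2 (day 0) and 1 (day 20), and a lane term 0 (day 0), 1 (day 20) and 3 (day 90). Without a filter there were 0 (day 0) and 1 (day 7), with RLE scaling 1 (day 7), and with RNA integrity as a covariate 5 (day 7). Leaving out day 11 replicates 1 and 2 gave 2 (day 14). The cause of these moves was not tested.

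With the replicate number as a block, only the compared wells were fitted. The counts were 14, 23, 13, 14, 12 and 6 for the steps to days 0, 1, 3, 5, 7 and 9. They were 16 (day 11), 0 (day 30) and 5 between days 9 and 90. Of all genes, 50.7%, 56.9%, 58.2%, 36.9%, 20.6% and 16.1% were called in the steps to days 0, 1, 3, 5, 7 and 9. The share was 47.5% (day 11), 0% (day 30) and 10.6% between days 9 and 90. Every pair of same-numbered wells correlated over 0.1 between days 7 and 9. Over 2 pairs each, the same held for day 14 against day 11 (0.305 to 0.371) and day 20 against day 14 (0.329 to 0.550). It also held over 2 pairs for day 90 against day 9 (0.224 to 0.257). In each other blocked comparison the lowest correlation was under 0.1. The blocked step to day 11 rested on shared numbers 1 and 2. No block could be fitted from day 30 to day 90, whose wells share fewer than 2 numbers. The shallowest libraries were at days 14, 20 and 30, and the part of depth in the low counts of calls there was not tested.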
